A study of Mus musculus with 48 samples.

Results

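Oligomycin A was compared with its vehicle in MLO-Y4 cells that received the drug directly. Of the 55335 gene rows in the table, 11933 had a mean of at least 1 FPKM (fragments per kilobase of gene model, scaled to library size) over the 6 libraries compared, and all of these were tested, whatever their change. MLO-Y4 is an established mouse line with features of osteocytes, the cells enclosed in bone matrix. The 3 oligomycin A libraries came from cells given 50 µM oligomycin A for 1 h, diluted from a 50 mM stock, and the 3 vehicle libraries from cells given the same volume of DMSO. Both groups are labelled C57BL/6J and wild type, and the labels give no other allele, agent or time for them. The treatment label of the vehicle libraries names oligomycin A beside DMSO and gives the concentration in mM, whereas their titles name DMSO alone and the protocol gives µM. RNA was selected by its poly(A) tail. The labels do not say that replicates were separate cultures, so p-values measure the spread between libraries, which may be technical. That spread was estimated over 12 libraries of the same table. They are the 6 compared and those of cells that received supernatant instead.

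Oligomycin A blocks the proton channel of the mitochondrial ATP synthase, so that ATP can no longer be made by oxidative phosphorylation. Cells are known to answer mitochondrial stress through the integrated stress response, in which phosphorylation of eIF2 favours translation of the transcription factor ATF4, and many stimuli switch on immediate early genes, whose transcription needs no new protein. Osteocytes sense load and regulate the bone cells around them, and ATP that they release is a known signal in bone. The comparison asks how the transcripts of osteocyte-like cells stand after ATP synthase has been blocked for a short time.

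The 6 libraries had an estimated depth of 15000000 to 20400000 fragments, read from the steps of low FPKM values and therefore approximate. Vehicle replicate 2 stood apart, where 17 rRNA-like and 7S rows took 27.96% of the summed FPKM, against 0.21% to 0.42% in the other 5 libraries. Its median over the tested genes was 6.04 FPKM, against 6.52 to 6.72 in the others. Its summed FPKM was 352370, against 269282 to 279243 in the others. Some results are therefore also given without it, but not every count that changes. Of 11 osteocyte markers 7 were tested. Pdpn, which encodes podoplanin, had 208, 181 and 197 FPKM in vehicle replicates 1, 2 and 3 and 201, 222 and 203 FPKM in the oligomycin A replicates, and Cd44 had 75.3, 66.8 and 78.8 FPKM with vehicle and 75.3, 76.4 and 72.98 FPKM with oligomycin A. Dmp1, Mepe, Sost and Fgf23, markers of mature osteocytes, were listed at 0 in all 6 libraries, so these defining markers of the labelled cell type were not seen. Of the 11 macrophage and blood markers 3 passed the filter on low values and 0 were called, with a summed level of 21.1 to 21.2 FPKM in vehicle and 21.4 to 25.6 FPKM in oligomycin A libraries. Most of that sum was Cd14, with 17.7, 17.5 and 16.98 FPKM with vehicle and 18.01, 21.7 and 17.8 FPKM with oligomycin A, while Adgre1, Itgam and Cd3e were listed at 0 in all 6, and the part of these markers in the results was not tested. Of 7 endothelial markers 0 passed the filter. In libraries of whole cultures, fewer cells of a type and less RNA per cell cannot be told apart.

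A gene is described below as higher or lower, or as having risen or fallen, where the adjusted p of limma over all 11933 genes was below 0.05. Fold changes are differences of log2(FPKM + 1), a scale on which low genes change less than their FPKM do. The test passed for 640 genes (5.36%), 448 of them higher (3.75%) and 192 lower (1.61%) with oligomycin A. Each count of called list members below is to be read beside these shares, and a count near them does not set a list apart. Vehicle and oligomycin A libraries were fully separated in all 448 higher genes and in 191 of the 192 lower genes, against 29.9% of all tested genes (16.8% higher and 13.1% lower). Most changes were small: 291 of the higher and 149 of the lower genes changed by less than 0.5 on the log2 scale, 109 and 29 by 0.5 to 1, and 48 and 14 by at least 1. Summed over the genes of each direction, the group means rose by 10470 FPKM and fell by 1118 FPKM. Without vehicle replicate 2 the split turned to 292 higher (2.45%) and 367 lower (3.08%), with the median of all genes moving from 0.00 to -0.04, and 282 of the 448 and 160 of the 192 genes were still called in the same direction. With each library rescaled to one total, which holds the rRNA-like and 7S rows, it was 266 higher and 20 lower. A total without those and satellite-like rows gave 652 higher and 480 lower. With scaling by the median of ratios it was 768 higher (6.44%) and 404 lower (3.39%). With both changes, vehicle replicate 2 left out and scaling by the median of ratios, it was 405 higher (3.39%) and 161 lower (1.35%). Over the 20 alternatives, 125 genes stayed higher and 6 stayed lower, not counting genes that a stricter filter left untested. Of the named genes, 24 of the 32 lower and 18 of the 87 higher ones lost their call in at least 1 rescaling to one total, with or without mt- genes. When the total left out rRNA-like, 7S and satellite-like rows, 0 named genes lost a call. Small changes were seldom called, with 9 calls among the 9059 genes that changed by less than 0.2 on the log2 scale. Of the called genes, 17 higher and 10 lower had a mean below 1 FPKM in the group where they were low and passed the filter through the other group alone. Unless a sentence says otherwise, each gene named as higher or lower was also called with each of the 6 libraries left out in turn.

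**Figure D1:**
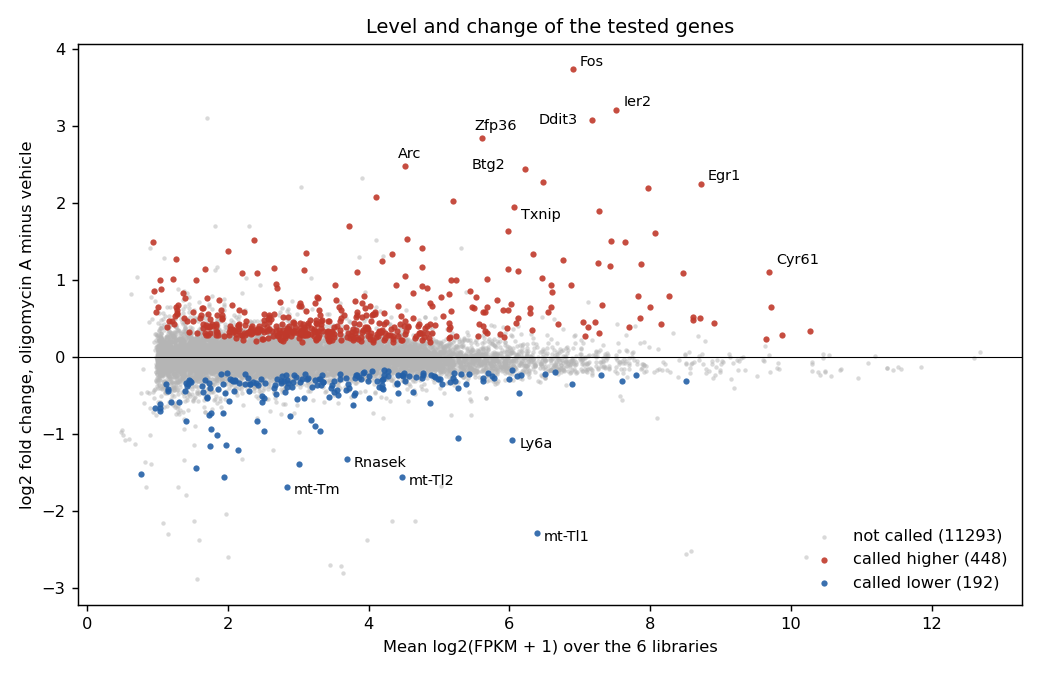
Mean level of each tested gene over the 6 libraries (horizontal axis, log2(FPKM + 1)) against its log2 fold change, oligomycin A minus vehicle (vertical axis). Red points are the 448 genes called higher, blue points the 192 called lower and grey points the rest. The largest rises sit at middle and high levels, and the lowest called point is mt-Tl1.

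Fos and Ier2, genes of the immediate early class, had the largest rises among called genes, followed by Ddit3 and Zfp36, which are described further on. Fos (chr12:85473890-85477273), a subunit of the AP-1 factor, had 32.1, 29.6 and 33.9 FPKM in the vehicle libraries and 441, 413 and 452 FPKM with oligomycin A, a log2 fold change of 3.73 ± 0.13 (SE) with limma's adjusted p = 2.4e-08. Ier2, a nuclear early response protein, had 59.4, 58.8 and 60.1 FPKM and 561, 527 and 581 FPKM, a log2 fold change of 3.20 ± 0.09 (SE). Each oligomycin A library lay far above each vehicle library in both genes, and the spread within a group was small. Egr1, a zinc finger transcription factor, had 195, 200.4 and 183 FPKM and 953, 875 and 932 FPKM, and its rise of 727 FPKM between group means was the largest of any called gene. Arc, known best as a synaptic protein, stood at a lower level in both groups, with 9.71, 8.23 and 8.31 FPKM and 57.7, 52.4 and 50.02 FPKM.

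Of 13 tested AP-1 subunits and partners 6 were higher and 0 lower, with a median log2 fold change of 0.26 against 0.00 over all tested genes. Jun went from 84.2, 69.8 and 83.4 to 308, 289 and 291 FPKM (1.89 on the log2 scale), Junb rose by 1.49 and Fosb by 1.42. In a list of 20 tested early genes, which holds the EGR, NR4A and IER families and others such as Myc, Arc, Nfil3 and Bhlhe40, 13 were higher and 0 lower, with a median of 0.79. The orphan nuclear receptor gene Nr4a1 had 150, 138 and 170 FPKM and 415, 502 and 491 FPKM, and Ier3, which encodes a regulator of cell survival, 103, 101 and 104 FPKM and 286, 306 and 287 FPKM. Among 13 KLF and SP zinc finger factors 5 were higher and 0 lower, with a median of 0.27. Klf2 rose by 1.34, Klf6 by 1.14 and Klf11 by 0.40, while Klf4 at 0.35 lost its call when any single library was left out (adjusted p from 0.0554 to 0.0974 in limma) and Klf3 at 0.41 lost it without vehicle replicate 2 or any oligomycin A replicate (adjusted p from 0.0345 to 0.0786). Without vehicle replicate 2, the counts of higher members were 5, 15 and 3 for these lists. These lists were put together with the large changes already known, so their counts describe the genes and are not independent evidence.

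**Figure D2:**
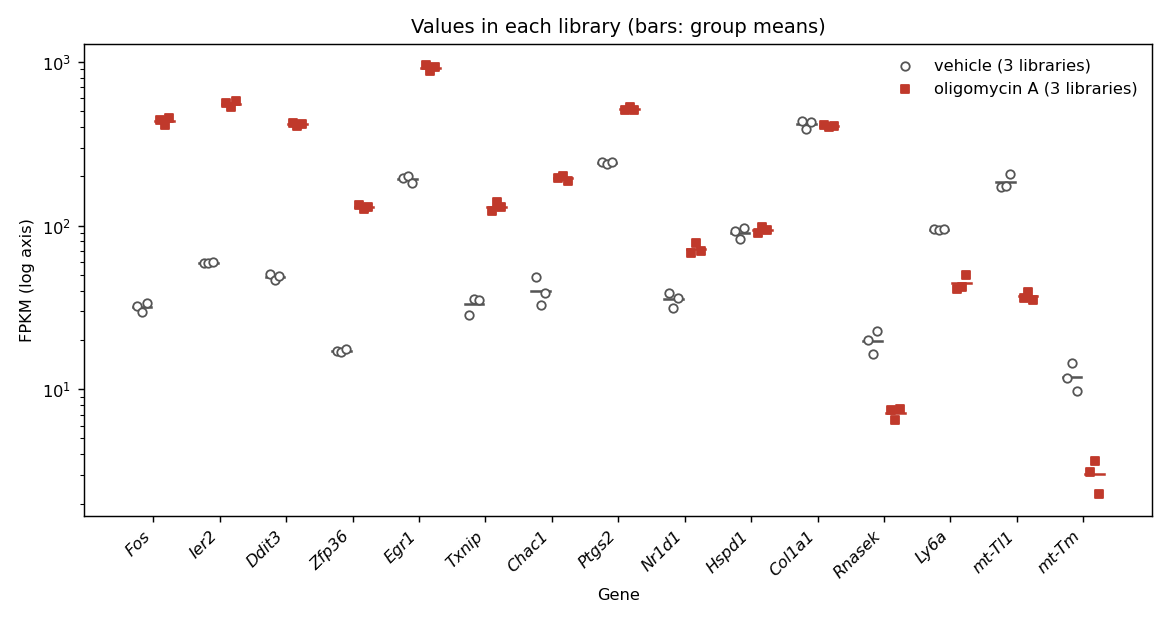
FPKM on a log axis for 15 genes in each of the 3 vehicle libraries (open circles) and the 3 oligomycin A libraries (red squares), with a bar at each group mean. Fos, Ier2, Ddit3, Zfp36, Egr1, Txnip, Chac1, Ptgs2 and Nr1d1 have every red square above every circle, Hspd1 and Col1a1 overlap, and Rnasek, Ly6a, mt-Tl1 and mt-Tm have every red square below.

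The promoters of these genes can be read for known motifs, and 326 of the 448 higher and 122 of the 192 lower genes matched by symbol to RefSeq promoters of the GRCm38.p6 build, which run from 250 bases before to 50 after each gene's start. The 250 bases before the start are shown for Fos (chr12:85473640-85473889, plus strand), Btg2 (chr1:134079156-134079405, minus strand), Dusp1 (chr17:26508473-26508722, minus strand) and Chac1 (chr2:119350992-119351241, plus strand), each 5′ to 3′ on the strand of the gene, as examples from the early factors, the inhibitors of signalling and the stress response described here. Capitals mark matches: in Fos an NF-kB site that starts 214 bases before the gene's start, read on the other strand, and a TATA box 33 bases before it, in Btg2 a cAMP response element at 166 bases, in Dusp1 a cAMP response element at 143 bases and an E-box at 126 bases, and in Chac1 a C/EBP-ATF composite element at 194 bases, read on the other strand.
Fos: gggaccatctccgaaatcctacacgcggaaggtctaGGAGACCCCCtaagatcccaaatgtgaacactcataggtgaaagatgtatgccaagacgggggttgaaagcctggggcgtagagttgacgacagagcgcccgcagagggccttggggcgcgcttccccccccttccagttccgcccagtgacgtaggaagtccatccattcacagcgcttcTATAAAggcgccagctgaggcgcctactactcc
Btg2: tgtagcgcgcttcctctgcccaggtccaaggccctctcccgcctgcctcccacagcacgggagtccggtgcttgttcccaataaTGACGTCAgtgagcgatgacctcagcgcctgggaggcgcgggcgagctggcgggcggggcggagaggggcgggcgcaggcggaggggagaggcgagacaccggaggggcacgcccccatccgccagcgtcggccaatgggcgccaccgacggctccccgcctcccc
Dusp1: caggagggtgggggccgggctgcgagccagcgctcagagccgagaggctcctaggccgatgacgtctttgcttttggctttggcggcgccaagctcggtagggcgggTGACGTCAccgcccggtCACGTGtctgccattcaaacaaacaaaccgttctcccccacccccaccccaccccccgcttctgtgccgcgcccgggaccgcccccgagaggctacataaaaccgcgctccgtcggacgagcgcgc
Chac1: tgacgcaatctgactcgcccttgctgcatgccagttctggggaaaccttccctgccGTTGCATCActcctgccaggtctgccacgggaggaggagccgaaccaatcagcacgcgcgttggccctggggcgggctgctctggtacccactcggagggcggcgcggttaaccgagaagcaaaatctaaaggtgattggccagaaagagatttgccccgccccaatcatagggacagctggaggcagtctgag
The cAMP response element TGACGTCA, searched on both strands, was in 3.17% of the promoters of tested genes, 5.36% of those of higher genes and 5.84% of those of lower genes, against 1.79% of all promoters in the table. The TATA box letters TATAAA, searched on the gene's strand, were in 3.95% of promoters of tested genes, 7.23% for higher and 3.65% for lower genes, and 8.32% of all promoters. Among the 32 promoters of genes that rose by at least 1 on the log2 scale, 5 held TATAAA, 5 the E-box, 3 the cAMP response element, 3 the AP-1 letters and 6 an NF-kB site, which was in 5.13% of promoters of tested genes, 7.46% for higher and 4.38% for lower genes, and 4.51% of all. The C/EBP-ATF letters TGATGNAAN, on both strands, were in 3 of these 32 promoters, in 2.80% for all higher genes, in 2.08% for tested genes and in 3.95% of all promoters. AP-1 letters TGANTCA, on both strands, were in 4.66% of promoters of higher genes, 4.94% of those of tested genes and 7.81% of all, and the E-box CACGTG in 10.5%, 10.3% and 7.15%. TEAD letters GGAATG were in 18.2% of promoters of lower genes, 12.4% for higher and 11.7% for tested genes and 14.7% of all, and antioxidant response letters TGACNNNGC in 18.2%, 17.2%, 14.2% and 12.4%, with 3 and 4 of the 32 holding them. The CArG box was in 2.10% of promoters of higher genes, 1.46% for lower and 1.30% for tested genes and 1.63% of all, and the heat shock element in 0.233%, 0.730%, 0.475% and 0.603%, with 1 and 0 of the 32. These were searched on both strands. A CArG match can hold TATAAA, an antioxidant match the AP-1 letters, and an NF-kB or heat shock match the TEAD letters. Among promoters read gene by gene, those of Jun, Txnip, Sesn2 and Atf4 held no match, leaving TEAD and antioxidant response letters aside. That of Ddit3 held only the AP-1 letters, so the promoters shown do not represent their classes. A match is a run of letters, not a measured site.

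Inhibitors of signalling and factors of mRNA decay were among the higher genes. Zfp36 encodes tristetraprolin, which brings decay factors to AU-rich mRNAs. It had 17.2, 16.9 and 17.6 FPKM with vehicle and 134, 126 and 129 FPKM with oligomycin A, a log2 fold change of 2.84 ± 0.07 (SE) and limma's smallest adjusted p among the named genes, 2.44e-09. Its relative Zfp36l1 rose by 1.02. The anti-proliferative gene Btg2, whose promoter is shown above, had 32.8, 29.99 and 29.9 FPKM and 171, 169 and 177 FPKM (2.44), and Btg1 rose by 0.39. These were the 4 higher members of 20 tested mRNA decay and BTG factors, with 0 lower and a list median of 0.10.

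Of 16 MAP kinase phosphatases and Sprouty-type inhibitors 6 were higher and 0 lower, with a median of 0.35. Dusp1, a nuclear phosphatase of MAP kinases, had 17.1, 15.7 and 18.9 FPKM and 74.05, 67.7 and 76.9 FPKM (2.02). Errfi1, an inhibitor of the EGF receptor, was already high with 704, 638 and 681 FPKM and reached 1059, 1076 and 1027 FPKM (0.64). Spry2 rose by 0.94 and Dusp8, which passed the filter only through the oligomycin A libraries, by 0.61, while Dusp6, a phosphatase of ERK, had 64.1, 61.3 and 61.3 FPKM and 68.7, 75.98 and 71.4 FPKM and did not pass (adjusted p = 0.0765 in limma), although its libraries did not overlap. In the NF-kB pathway 6 of 19 members were higher and 0 lower, with a median of 0.20. The 4 with the smallest p were Nfkbia, Nfkbiz at 0.93, Bcl3 at 0.61 and Tnfaip3 at 1.00. The inhibitor gene Nfkbia had 48.9, 42.4 and 48.2 FPKM and 105, 100.2 and 98.6 FPKM. Tnfaip3, the deubiquitinase A20, was low, with 1.25, 0.681 and 1.32 FPKM in the vehicle libraries and 3.18, 3.28 and 2.96 FPKM with oligomycin A.

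Of 18 tested genes of the integrated stress response 10 were higher and 0 lower, 8 and 0 without vehicle replicate 2, with a median of 0.41. The list holds regulators such as Ddit3 and Atf4 and also genes that they are known to drive, such as Chac1, Ddit4 and Sesn2. Ddit3, the transcription factor CHOP, had 50.5, 46.2 and 49.02 FPKM with vehicle and 426, 408 and 419.6 FPKM with oligomycin A, a log2 fold change of 3.08 ± 0.12 (SE) (limma adjusted p = 4.74e-08). Chac1, which encodes a glutathione-degrading enzyme, had 48.4, 32.9 and 38.9 FPKM and 197, 202 and 188 FPKM, a log2 fold change of 2.27 ± 0.15 (SE). Atf4 mRNA had 145, 135 and 182 FPKM and 366, 281 and 432 FPKM, so the groups did not overlap but oligomycin A replicate 2 lay well below the other 2, and the standard error of its log2 fold change, 1.21 ± 0.20, was larger. Ddit4, an inhibitor of mTORC1 signalling, had 35.8, 32.4 and 36.7 FPKM and 108, 115 and 108 FPKM, and Sesn2, a leucine sensor of the same pathway, rose by 0.89. Atf3, Stc2, Gdf15 and Fgf21 were below the filter on low values, so their change was not tested.

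In a separate list of amino acid synthesis and transport, which holds further known targets of ATF4, 2 of 19 tested genes were higher and 0 lower, with a median of 0.14. These were the transporter genes Slc38a2, with 50.9, 48.1 and 51.8 FPKM and 82.1, 81.6 and 80.97 FPKM (0.69), and Slc3a2 (0.65). Of 21 cytosolic aminoacyl-tRNA synthetase and tRNA export genes 0 passed in either direction, with a median of 0.08, and Gars had 67.2, 57.5 and 64.7 FPKM and 63.8, 65.6 and 67.05 FPKM. None of the 20 chaperones of the endoplasmic reticulum passed either, with a median of 0.00, and Hsp90b1 had 559.9, 499 and 585 FPKM and 572, 543 and 572 FPKM with overlapping libraries. Of 15 mitochondrial chaperones and proteases 0 passed, with a median of 0.01. Among them Hspa9 had 114, 104 and 109 FPKM and 135, 130.4 and 136 FPKM (adjusted p = 0.0914 in limma) and Hspd1 92.8, 82.5 and 96.5 and 89.95, 97.6 and 93.7 FPKM. Over all tested genes 3.75% were higher and 1.61% lower, so counts of 0 do not set lists of this size apart from the rest. The lists were not compared with each other by a test.

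**Figure D3:**
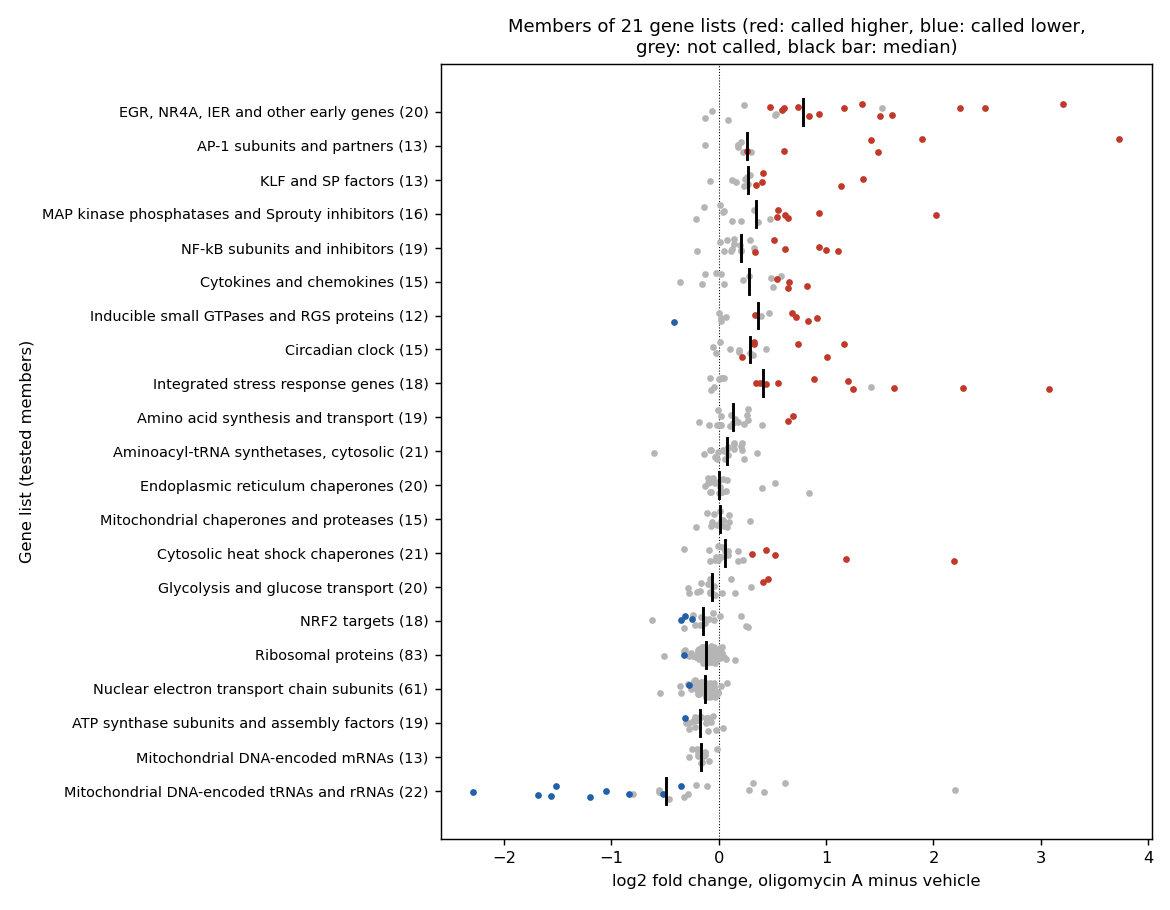
Log2 fold change, oligomycin A minus vehicle (horizontal axis), of each tested member of 21 gene lists (vertical axis, number tested in parentheses). Red points are called higher, blue points called lower and grey points not called, and black bars mark list medians. Early factors and stress response genes spread to the right up to 3.73, and chaperones of organelles cluster at 0. Mitochondrial tRNAs spread from mt-Tl1 on the left to mt-Ts2, not called, at 2.20 on the right.

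In the cytosol, 5 of 21 heat shock and ubiquitin genes were higher and 0 lower, with a median of 0.06. The polyubiquitin gene Ubb had 313, 329 and 334 FPKM with vehicle and 466, 446 and 492 FPKM with oligomycin A (0.52). Of the co-chaperones, Dnajb1 had 120, 103 and 116 FPKM and 273, 240.4 and 259 FPKM (1.18) and Dnaja1 rose by 0.44, whereas Hsp90ab1 had 661, 576 and 643 FPKM and 638, 627 and 602 FPKM. Without vehicle replicate 2, 4 members of this list were higher and 1 lower.

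Txnip (chr3:96557957-96561883) encodes an alpha-arrestin that binds thioredoxin and limits glucose uptake, and its transcription is known to follow glucose metabolites through the factors MondoA and MLX. It had 28.6, 35.6 and 35.2 FPKM with vehicle and 123, 139 and 129 FPKM with oligomycin A, a log2 fold change of 1.95 ± 0.17 (SE) (limma adjusted p = 5.61e-05). Of the 8 tested genes of this list it was the only one called. Arrdc4, the alpha-arrestin most closely tied to MondoA beside Txnip, had 31.4, 32.02 and 33.9 FPKM and 35.05, 40 and 35.5 FPKM, without overlap and with adjusted p = 0.113. Arrdc3 had 11.4, 10.3 and 6.96 and 10.8, 13.8 and 11.97 FPKM, Arrdc2 3.72, 3.78 and 4.16 and 3.82, 3.39 and 3.43 FPKM, and Arrdc1 2.17, 1.71 and 2.09 and 2.15, 1.67 and 2.41 FPKM. Mlxip, which encodes MondoA, had 9.46, 13.4 and 10.2 and 10.9, 14.5 and 9.86 FPKM, Mlx 13.2, 15.1 and 11.4 and 14.7, 15.6 and 12.2 FPKM, and the thioredoxin gene Txn1 158, 149 and 152 and 139.5, 148 and 149 FPKM. Vehicle and oligomycin A libraries overlapped in each of the last 6 genes.

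Of 20 tested genes of glycolysis and glucose transport 2 were higher and 0 lower, with a median of -0.06, or 0.09 with libraries rescaled to one total. When that total left out rRNA-like, 7S and satellite-like rows the median was -0.06. Without vehicle replicate 2, 1 was higher and 1 lower. The glucose transporter gene Slc2a1 had 138, 115 and 127 FPKM and 173, 178 and 170.3 FPKM (0.46). Hk2, a hexokinase gene, had 27.5, 22.9 and 26.5 and 34.1, 35.5 and 33.3 FPKM, and its call was lost when any single library was left out (limma adjusted p from 0.0686 to 0.142). Ldha, which makes lactate dehydrogenase, had 626, 608 and 651 and 523, 485 and 537 FPKM and did not pass (adjusted p = 0.12). Of 24 energy and nutrient sensing genes 3 were higher, namely Ddit4, Sesn2 and Mitf, a relative of the lysosomal regulator gene Tfeb (0.39). Of 24 genes of the lysosome and V-ATPase 0 passed, and 1 was lower without vehicle replicate 2. In polyamine metabolism, Sat1, which acetylates and so removes spermidine and spermine, had 104, 93.9 and 101 FPKM and 236, 225 and 238 FPKM (1.22). Srm, which makes spermidine, had 44.8, 38.9 and 46.7 FPKM and 34.2, 34.4 and 29.2 FPKM (-0.40), a fall that lost its call without vehicle replicate 1 or 3 or oligomycin A replicate 3 (adjusted p from 0.00674 to 0.0593). The other 9 tested polyamine genes did not pass.

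The cyclooxygenase gene Ptgs2, which makes prostaglandin precursors, had 244, 239 and 244 FPKM with vehicle and 509, 527 and 511 FPKM with oligomycin A (1.09), and it was the single called member of 9 prostaglandin genes. Of 15 cytokine and chemokine genes 4 were higher and 0 lower, with a median of 0.28. Il6 had 25.8, 26.3 and 24.4 FPKM and 42.5, 48.01 and 47.1 FPKM (0.82) and Cxcl1 206, 199 and 207 FPKM and 304, 328 and 325 FPKM (0.64). Il1a at 0.54 lost its call without vehicle replicate 1 or oligomycin A replicate 2 or 3 (limma adjusted p from 0.0319 to 0.0758), and Cxcl10 at 0.66 lost it with any single library left out (adjusted p from 0.0627 to 0.148). Cxcl5, the most abundant member, had 1428, 1456 and 1553 FPKM and 1397, 1630 and 1482 FPKM, with overlapping groups. Of 13 growth factor genes 3 were higher: Ereg at 0.51, Vegfa at 0.38 and Fgf7 at 0.27. Vegfa was not called without oligomycin A replicate 2 (adjusted p from 0.0309 to 0.0587 over single omissions), and Fgf7 not without any one oligomycin A replicate (adjusted p from 0.0359 to 0.0717). Of 6 tested osteoclast regulators 1, Il6, was higher. Csf1, the macrophage growth factor gene, had 139, 109 and 132 and 94.2, 110.1 and 89.9 FPKM, and passed as lower only without vehicle replicate 2 (log2 fold change -0.47, adjusted p = 0.0426).

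Cyr61, which encodes a matricellular protein and is a target of YAP and SRF, had 567, 572 and 543 FPKM with vehicle and 1244, 1170 and 1212 FPKM with oligomycin A, a log2 fold change of 1.11 ± 0.14 (SE). Of 17 SRF and YAP targets 3 were higher, Cyr61 and the actin genes Actb (0.29) and Actg1 (0.24), and the list median was 0.04, or -0.04 without vehicle replicate 2. In that omission Cyr61 alone passed, with adjusted p = 0.0618 for Actb and 0.0934 for Actg1. Both actin genes also lost the call without vehicle replicate 3 or oligomycin A replicate 2 or 3, and Actg1 without oligomycin A replicate 1. Of 12 inducible small GTPase and RGS genes 5 were higher and 1 lower, with a median of 0.37. Gem had 19.5, 17.9 and 18.8 FPKM and 36.2, 35.2 and 37.2 FPKM (0.92), Rnd3, which encodes an atypical small GTPase, 18.2, 17.4 and 17.3 FPKM and 32, 31.9 and 32.9 FPKM (0.83), and Rhob 135, 117 and 125 and 204, 199.7 and 200.3 FPKM (0.68). Rem1, a relative of Gem, had 2.85, 3.29 and 3.49 FPKM and 1.95, 2.16 and 2.38 FPKM (-0.41), and lost its call without vehicle replicate 3 or oligomycin A replicate 1 or 2 (adjusted p from 0.0126 to 0.0636).

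Among 15 TGF-beta and BMP response genes 4 were higher and 0 lower, with a median of 0.15 that became -0.04 without vehicle replicate 2. Id3, an inhibitor of helix-loop-helix factors, had 27.2, 25.4 and 24.9 FPKM and 50.3, 59.2 and 48.8 FPKM (1.00). Smad7, an inhibitor of TGF-beta receptors, had 3.67, 3.75 and 3.81 FPKM and 7.94, 8.19 and 7.38 FPKM (0.90). Plat, a plasminogen activator gene, rose by 0.70 and the protease gene Adamts1 by 0.65. The protease inhibitor gene Timp1 had 219.8, 202 and 222 FPKM and 178, 171 and 169.9 FPKM (-0.31), a fall called in the full comparison and without vehicle replicate 2, and lost without any other single library (limma adjusted p from 0.0244 to 0.0919). Of 15 tested p53 targets and GADD45 genes 3 were higher, all of them GADD45 genes. Gadd45a had 16, 11.8 and 11.04 FPKM and 42.7, 31.1 and 44.3 FPKM, Gadd45b rose by 0.66, and Gadd45g at 0.77 lost its call without oligomycin A replicate 1 or 2 (adjusted p from 0.0123 to 0.0587). The p53 target Cdkn1a had 61.2, 52.2 and 59.2 FPKM and 75.2, 73.4 and 73.1 FPKM and did not pass (adjusted p = 0.0726).

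Of 15 tested clock genes 6 were higher and 0 lower, with a median of 0.29, and 4 were higher without vehicle replicate 2. Nr1d1, which encodes the repressor REV-ERB alpha, had 38.8, 31.3 and 35.97 FPKM with vehicle and 67.98, 77.8 and 69.9 FPKM with oligomycin A, a log2 fold change of 1.01 ± 0.09 (SE). Nfil3, which competes with clock activators for D-boxes, had 17.9, 17.1 and 16.2 FPKM and 39.7, 39.9 and 39.03 FPKM (1.17), and Bhlhe40, a repressor, 46, 37.7 and 44.98 FPKM and 69.9, 76.4 and 69.03 FPKM (0.73). Rora at 0.33 lost its call without any one oligomycin A replicate (limma adjusted p from 0.0331 to 0.1), and Arntl at 0.33 without any single library but vehicle replicate 3 (adjusted p from 0.0492 to 0.0914). Nfil3 and Bhlhe40 are also in the list of early genes, and Bhlhe40 and Rora in that of the hypoxia response, where 4 of 17 were higher, with a median of 0.06.

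Among RNA processing genes, the kinase gene Clk1, which phosphorylates SR splicing factors, had 8.48, 8.14 and 9.10 FPKM and 14.4, 13.4 and 14.3 FPKM (0.65), and Tra2b rose by 0.35. Srsf7, also of this list of 19, at 0.26, lost its call without any single library but vehicle replicate 1 (limma adjusted p from 0.0185 to 0.111). Some hosts of small nucleolar RNAs rose: Snhg5 had 8.59, 6.83 and 8.68 FPKM and 14.5, 13.9 and 13.8 FPKM (0.74), Snhg1 rose by 0.58 and Zfas1 by 0.34, the last not without oligomycin A replicate 1 (adjusted p from 0.00989 to 0.0502). They were 3 of 14 tested members of the long noncoding list, which had a median of 0.12. Without vehicle replicate 2, 3 members of that list were higher and 1 lower. The nuclear RNAs Malat1, with 203, 165 and 179.7 and 182, 212 and 183 FPKM, and Neat1, with 29.4, 26.4 and 30 and 24.6, 31.1 and 21.2 FPKM, overlapped between groups. Of 69 replication-dependent histone genes 8 passed the filter on low values and 4 of these were called higher. Hist1h1c, a linker histone gene, had 29.2, 21.3 and 23.6 FPKM and 43.4, 59.3 and 48.1 FPKM (1.00), and Hist3h2a 0.705, 0.435 and 0.463 and 1.74, 1.90 and 1.85 FPKM. Hist3h2a and Hist2h2be, with vehicle means of 0.534 and 0.998 FPKM, passed the filter only through the oligomycin A libraries, so these calls do not describe the histone genes as a group. Hist2h2be lost its call without oligomycin A replicate 2, and Hist1h2bc without vehicle replicate 3 or oligomycin A replicate 2 or 3. Of 24 mitosis genes 3 were higher, and 0 without vehicle replicate 2. For the 3, Ndc80, Kif11 and Ttk, limma's adjusted p was then 0.0528, 0.0544 and 0.0948.

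Among called genes, a mitochondrial tRNA gene had the largest fall. The mitochondrial genome is transcribed as long RNAs from both strands, from which mRNAs and rRNAs are freed where the tRNAs between them are cut out. The tRNA genes are 59 to 75 nucleotides long and their RNAs were read after poly(A) selection, so the tRNA itself and longer RNAs that contain it cannot be told apart here. The sequences of the 5 plus-strand tRNA genes that stayed called with each library left out are shown from the GRCm38 genome, on their own strand, with the anticodon in capitals: mt-Tl1 (chrM:2676-2750) and mt-Tl2 (chrM:11671-11741) for leucine, mt-Tm (chrM:3845-3913) for methionine, mt-Tk (chrM:7700-7764) for lysine and mt-Th (chrM:11546-11612) for histidine.
mt-Tl1: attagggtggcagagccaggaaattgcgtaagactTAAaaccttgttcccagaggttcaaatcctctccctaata
mt-Tm: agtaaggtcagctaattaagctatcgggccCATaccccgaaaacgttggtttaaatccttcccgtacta
mt-Tl2: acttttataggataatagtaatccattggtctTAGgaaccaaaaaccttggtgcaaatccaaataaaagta
mt-Tk: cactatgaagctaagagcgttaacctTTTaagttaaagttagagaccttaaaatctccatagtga
mt-Th: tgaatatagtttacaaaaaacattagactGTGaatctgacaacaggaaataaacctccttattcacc
mt-Tl1 lies between the large rRNA gene mt-Rnr2 and mt-Nd1 with 0 bases between it and either, mt-Tm directly before mt-Nd2, and mt-Tl2 directly before mt-Nd5. mt-Tl1 had 171, 174 and 208 FPKM with vehicle and 36.3, 39.5 and 34.99 FPKM with oligomycin A (limma adjusted p = 2.4e-08). mt-Tm had 11.7, 14.4 and 9.69 FPKM and 3.13, 3.66 and 2.28 FPKM, and mt-Tl2 35.01, 31.5 and 46.4 FPKM and 10.6, 16.1 and 9.94 FPKM. In each of these genes every oligomycin A library lay below every vehicle library. mt-Tk had 4.72, 4.98 and 7.73 FPKM and 1.99, 2.23 and 1.54 FPKM, and mt-Th 49.5, 46.03 and 71.2 FPKM and 23.02, 32.5 and 23.1 FPKM.

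By strand, 13 of the 14 tRNA genes on the plus strand were tested and 7 were lower, with a median log2 fold change of -0.56, and 7 of the 8 on the minus strand were tested and 2 were lower, with a median of -0.10. Beside the 5 tRNAs shown, the plus strand held mt-Tw at -0.83 and mt-Tg at -0.51, and the minus strand mt-Te at -0.35. These 3 lost their calls in some omissions of a single library: mt-Tw without vehicle replicate 3 or oligomycin A replicate 2 or 3, mt-Tg without vehicle replicate 1 or 3 or oligomycin A replicate 1 or 3, and mt-Te without any library but vehicle replicate 2. mt-Tq, the glutamine tRNA on the minus strand beside mt-Tm, had 1.94, 0.987 and 3.07 FPKM with vehicle, and with oligomycin A 0.01995 FPKM in replicate 1 and listed values of 0 in replicates 2 and 3, so it passed the filter only through the vehicle libraries. Its neighbours on the minus strand did not pass: mt-Ta had 19.7, 13.03 and 23.9 and 21.6, 24.4 and 21.6 FPKM, mt-Tn 49.6, 31.9 and 58.4 and 60.1, 65.99 and 57.05 FPKM, and mt-Tc 40.7, 27.6 and 44.4 and 47.1, 48.4 and 43.8 FPKM. In these 3 genes vehicle replicate 2 was the lowest library. Without it 7 plus-strand and 2 minus-strand tRNA genes were again lower. The difference between the strands was not tested.

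**Figure D4:**
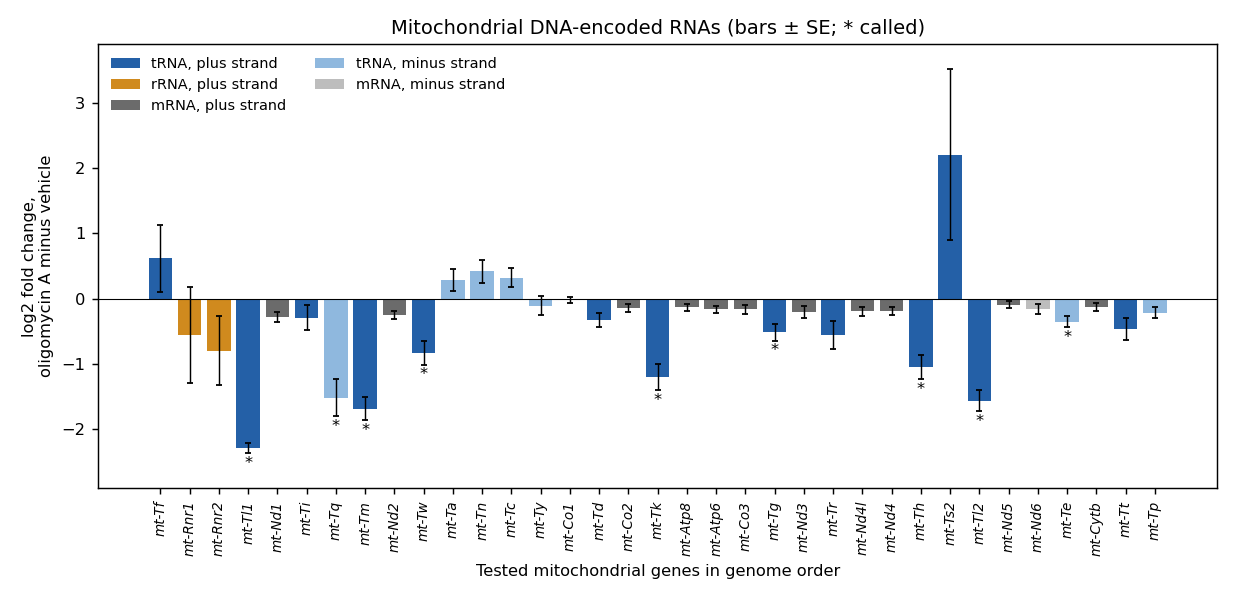
Log2 fold change, oligomycin A minus vehicle (vertical axis, bars with SE), of the tested mitochondrial genes in genome order (horizontal axis), coloured by kind and strand, with called genes marked by an asterisk. The called bars are 9 tRNAs, all below 0 and led by mt-Tl1, and each of the 13 mRNA bars is short and below 0.

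Of the longer mitochondrial RNAs 0 passed in the comparison of all 6 libraries. Each of the 13 mRNAs had a negative log2 fold change, from -0.28 to -0.02 with a median of -0.16, and 0 were called, against 3 lower without vehicle replicate 2. The median was -0.01 with libraries rescaled to one total and 0.04 with quantile normalization. It was -0.17 when the total left out rRNA-like, 7S and satellite-like rows. mt-Co1, a cytochrome oxidase subunit and the most abundant, had 6178, 5873 and 6658 FPKM and 6111, 6079 and 6255 FPKM. Outside the rRNA-like and 7S rows, mitochondrial mRNAs took 10.7%, 11.03% and 11.6% of summed FPKM in the vehicle libraries and 10.1% in each oligomycin A library. This difference had p = 0.1 in a two-sided exact permutation test, the smallest that 3 against 3 libraries can give. The tRNAs took 0.21%, 0.222% and 0.249% in vehicle and 0.143%, 0.153% and 0.134% in oligomycin A libraries (two-sided exact permutation test, p = 0.1).

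A few mitochondrial rows were set by single libraries. mt-Rnr1, the small rRNA, had 92.1, 1300 and 107 FPKM with vehicle and 162, 159 and 157 FPKM with oligomycin A. Vehicle replicate 2 was the highest of the 6 by far and the other vehicle libraries the lowest, and without it mt-Rnr1 was higher with oligomycin A, at a log2 fold change of 0.67 (limma adjusted p = 0.00075). mt-Rnr2 had 177, 1213 and 217 FPKM and 208, 219 and 194 FPKM, with overlap also when vehicle replicate 2 is left aside. mt-Ts2, a serine tRNA of the plus strand, had 0.369, 28.8 and 0.392 FPKM and 15.5, 21.5 and 13.98 FPKM, again with vehicle replicate 2 apart, and did not pass with or without it (adjusted p = 0.355 and 0.0948).

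Nuclear genes of oxidative phosphorylation had mostly small negative log2 fold changes that did not pass. The change was below 0 in 18 of 19 ATP synthase genes (median -0.17) and in 59 of 61 nuclear genes of the electron transport chain (median -0.13), against 50.8% of all tested genes. With one total per library the median over all tested genes became 0.12, and these medians became -0.03 and 0.02. When that total left out rRNA-like, 7S and satellite-like rows, these medians were -0.18 and -0.13, with -0.01 over all tested genes. All oligomycin A libraries lay below all vehicle libraries in 12 of the 19 and 18 of the 61 genes, against 13.1% of all tested genes. That share was 29.5% of protein-coding genes that span under 5 kb and 18.9% of those of 5 to 20 kb. The part of gene span in these lists was not tested. The catalytic subunit gene Atp5b had 253, 234 and 259 FPKM and 232, 234 and 229.9 FPKM (adjusted p = 0.285 in limma). Atp5d, with 40.9, 39.5 and 41.1 and 33.6, 31.3 and 32.7 FPKM, and the complex I gene Ndufb8, with 14.2, 14.5 and 14.6 and 11.6, 11.7 and 11.96 FPKM, were the 2 called. Atp5d lost its call without any single library but vehicle replicate 2 (adjusted p from 0.0366 to 0.0984), and Ndufb8 without any single library (adjusted p from 0.065 to 0.124). Of 26 mitochondrial transcription and RNA processing factors 0 passed, with a median of 0.03. Of 20 mitochondrial dynamics and mitophagy genes 2 were lower: Phb2, a prohibitin of the inner membrane, had 37.3, 33.3 and 38.4 FPKM and 27.8, 28.6 and 27.9 FPKM (-0.36), and Fkbp8 was at -0.25. Phb2 lost its call without oligomycin A replicate 1 (adjusted p from 0.00563 to 0.0513) and Fkbp8 without any single library but vehicle replicate 2 (adjusted p from 0.0454 to 0.14).

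The change was also below 0 in 73 of 83 ribosomal protein genes (median -0.11, or 0.04 rescaled to one total). When that total left out rRNA-like, 7S and satellite-like rows the median was -0.12. Over all tested protein-coding genes that span under 5 kb the median was -0.10 as reported, and the part of gene span in this list was not tested. Of the ribosomal protein genes 1, Rpl18 at -0.32, was called, and lost its call without any single library but vehicle replicate 1 (limma adjusted p from 0.0496 to 0.119). Of 18 NRF2 targets 3 were lower and 0 higher, against 1.61% and 3.75% of all tested genes, with a median of -0.15. Without vehicle replicate 2, 5 were lower. With libraries rescaled to one total 0 were lower and the median was 0.00. It was -0.15 when the total left out rRNA-like, 7S and satellite-like rows. Pgd, an enzyme of the pentose phosphate pathway, had 46.4, 43.4 and 48.8 FPKM and 35.3, 37.6 and 35.04 FPKM (-0.35), and was not called with libraries rescaled to one total (-0.20, limma adjusted p = 0.435). Nqo1, a quinone reductase gene, had 53.8, 48.9 and 60 FPKM and 40.4, 46.97 and 42.8 FPKM (-0.31), and lost its call without vehicle replicate 1 or 3 or oligomycin A replicate 1 or 3 (limma adjusted p from 0.0185 to 0.142). The ferritin genes Fth1 and Ftl1 had log2 fold changes of -0.04 and -0.05 and overlapped between groups.

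Of named nuclear genes with at least 5 FPKM in the higher group, Rnasek (chr11:70238124-70239842), which encodes a small membrane protein of the V-ATPase, fell most, with 19.9, 16.5 and 22.5 FPKM with vehicle and 7.42, 6.48 and 7.60 FPKM with oligomycin A, a log2 fold change of -1.33 ± 0.15 (SE) (limma adjusted p = 0.000338). Mir22hg, the host RNA of a microRNA, had 37.3, 32.8 and 35.4 FPKM and 22.2, 23.1 and 22.99 FPKM (-0.60). The transporter gene Mfsd10, Slfn2 and the SNARE gene Vamp8 were at -0.54, -0.53 and -0.53. With libraries rescaled to one total, limma's adjusted p was 0.0932 for Mir22hg, 0.112 for Mfsd10, 0.139 for Slfn2 and 0.164 for Vamp8, so these calls were lost, while that of Rnasek was kept (0.00144). Each of these genes kept its call when the total left out rRNA-like, 7S and satellite-like rows. The groups did not overlap in any of these genes. Ly6a, the surface antigen Sca-1, had 94.7, 93.8 and 95.4 FPKM and 40.8, 42.4 and 50.1 FPKM, a log2 fold change of -1.08 ± 0.27 (SE). Its limma adjusted p of 0.0418 rose to 0.0788 to 0.13 when single libraries were left out of the fit of 12 libraries. In a fit of the 6 libraries alone its call was kept. The small nucleolar RNAs Snora34 and Snora2b, at -0.96 and -0.90, and Arpp19 at -0.77 also lost their calls in 5 of the 6 omissions, and kept them without vehicle replicate 1 (Snora2b) or vehicle replicate 2 (the other two). Their limma adjusted p ranged from 0.042 to 0.0917, from 0.0208 to 0.0751 and from 0.0441 to 0.13 over these omissions.

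Of 7 tested osteocyte markers and of 7 tested osteoblast and matrix genes 2 each were called, against 5.36% of all tested genes, and each of these calls was lost in some omission of a single library. Of the osteocyte markers Ackr3 was higher at 0.31 and Capg lower at -0.23, and of the osteoblast and matrix genes Runx2, the osteoblast transcription factor, was higher at 0.38 and Sparc lower at -0.24. Ackr3 lost its call without oligomycin A replicate 1 or 3, Capg and Sparc without any single library but vehicle replicate 2, and Runx2 without vehicle replicate 1 or 2 or oligomycin A replicate 1 or 2. Spp1, the osteopontin gene, had 6477, 6273 and 6496 FPKM and 6364, 7125 and 6585 FPKM, and Col1a1 433, 388 and 428 and 413, 398 and 408 FPKM. Both overlapped between groups. The fibroblast list had 0 of 5 tested members called.

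The change of a protein-coding gene went with the length of genome that it spans. The 38 protein-coding genes that rose by at least 1 on the log2 scale had a median span of 4.24 kb and 3 exons in the longest transcript, against 24.0 kb over all 10078 tested protein-coding genes. All 401 that were higher had a median of 28.4 kb, and the 155 that were lower one of 8.53 kb. The longest transcript had a median of 4117 nucleotides and 8 exons in higher genes and 2373 nucleotides and 5 exons in lower genes. Over all tested protein-coding genes it had 3418 nucleotides and 8 exons, and in the 38 genes 2326 nucleotides. Of genes under 5 kb 5.24% were higher and 4.30% lower, of those of 5 to 20 kb 3.34% and 2.39%, of those of 20 to 50 kb 2.94% and 0.786%, and of those of 50 kb or more 5.41% and 0.185%. The median log2 fold change went from -0.10 under 5 kb through -0.05 and 0.02 to 0.08 at 50 kb or more. Without vehicle replicate 2 the 4 medians were -0.14, -0.09, -0.03 and 0.03, and the shares of lower genes 7.20%, 5.14%, 1.98% and 0.371%. All oligomycin A libraries lay below all vehicle libraries in 29.5% of genes under 5 kb and above them in 9.73%, and at 50 kb or more these shares were 2.71% and 29.8%.

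The libraries of a group agreed in this. With each library's median set to 0, the median deviation from the mean of the 6 libraries for genes under 5 kb was 0.043, 0.064 and 0.049 in the vehicle libraries and -0.056, -0.056 and -0.042 in the oligomycin A libraries. For genes of 50 kb or more it was -0.027, -0.047 and -0.034 with vehicle and 0.035, 0.033 and 0.032 with oligomycin A. The mean is taken over both groups, so their opposite signs are the same contrast, and only agreement within a group adds to it. The span bins also differed in level, with a median of 9.11 FPKM under 5 kb and 6.64 FPKM at 50 kb or more. The parts of level, transcript length and exon number in this pattern were not tested.

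**Figure D5:**
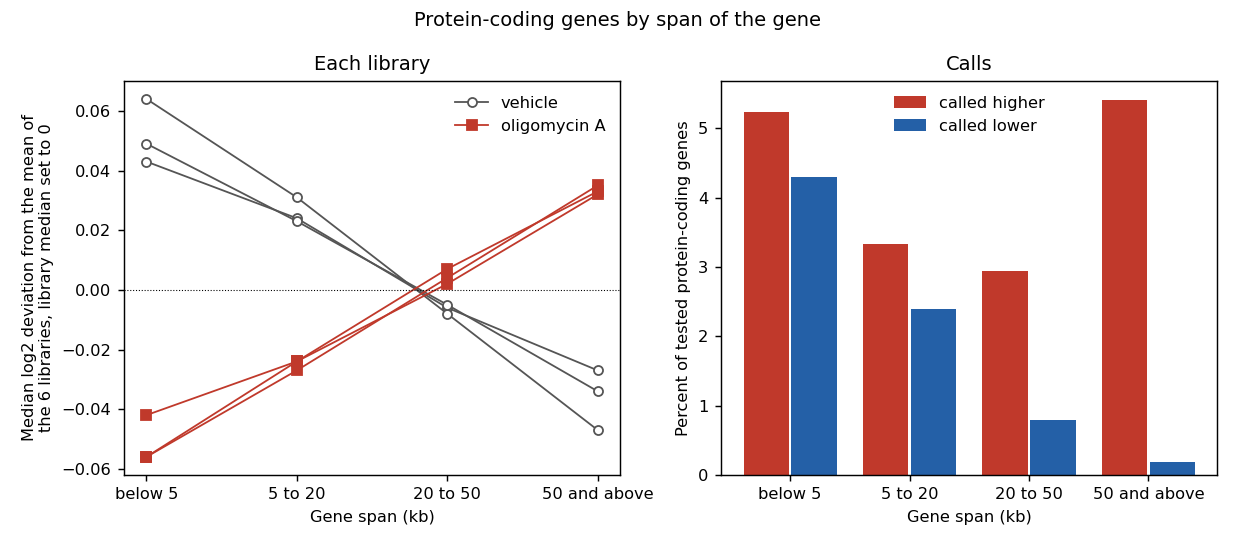
Left, median log2 deviation of protein-coding genes from the mean of the 6 libraries (vertical axis), with each library's median set to 0, by span of the gene in kb (horizontal axis); each line is a library. Vehicle lines fall from short to long genes and oligomycin A lines rise. The mean is over both groups, so these opposite slopes are the same contrast. Right, percent of tested protein-coding genes called higher (red) or lower (blue) in each span bin, with lower calls dropping from 4.30% to 0.185%.

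Some called rows carry predicted names, 47 among the higher and 25 among the lower genes. Of the 47, 10 lay within 5 kb of a named higher gene, 8 of them overlapping it and 4 of those on the opposite strand. Some of them overlap Slc2a1, Sesn2 and Ifrd1. These neighbours were chosen for mention after the values were seen. The sources used here do not say whether counting used strand, so fragments of such overlapping rows cannot be told apart.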

How the data were processed

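Of 48 libraries in the series, the 12 of the 4 oligomycin A groups share a table, and the 6 of vehicle-treated and oligomycin-treated MLO-Y4 cells were compared; the other tables were not used. The authors deposited FPKM values for 55335 gene rows, and the software that made them is not stated in the labels or headers. HTSeq and mm10 appear in the submitters' processing notes without a role. FPKM are not counts: in these libraries only 41.7% to 42.6% of low values, taken times gene length, came out whole within 0.1 fragment, so no count test was run and depth is an estimate.

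The test was limma 3.58.1 (R 4.3.3, trended prior) on log2(FPKM + 1), in a fit of the 12 libraries, on genes with a mean of at least 1 FPKM over the 6, with Benjamini-Hochberg adjustment over all 11933 and a threshold of 0.05. The fit was tested on simulated data. The 20 alternatives covered pseudocount, filter, scaling, variance prior, replicate block and omission of single libraries. Positions, spans and biotypes came from GENCODE M21 (GRCm38), which held 55154 of the gene identifiers.

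The members, gene lists, motifs and alternatives were chosen with earlier results of these data known. Named genes were, among called genes with separated libraries, an established symbol and a group mean of 5 FPKM or more, the 16 largest changes in each direction; from each list they were the 4 called members of lowest p and the 2 most abundant members, plus all members of the mitochondrial tRNA and alpha-arrestin lists. Lists of the interferon response (1 of 20 higher), cholesterol synthesis (0 of 20 called), Wnt and Notch targets (0 of 4) and the BCL2 family (1 of 13 higher) complete those examined. Equal replicate numbers did not pair the libraries.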

Additional observations from a re-analysis of the deposited data

How the results depend on the processing

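Counts of called, higher and lower genes were 640, 448 and 192 in the comparison as reported. They were 396, 295 and 101 with no filter on low values, 286, 266 and 20 rescaled to one total, 251, 227 and 24 when mt- genes were left out of that total, 1172, 768 and 404 under scaling by the median of ratios, and 1258, 727 and 531 with quantile normalization. They were 1132, 652 and 480 when the total left out rRNA-like, 7S and satellite-like rows, and 412, 317 and 95 in a fit of the 6 libraries alone. The share of calls that were higher was 70.0% as reported, 93.0% and 90.4% in the rescalings to one total, 57.8% with quantile normalization, 57.6% without the special rows and 44.3% without vehicle replicate 2. Leaving out single libraries gave 266 to 659 called genes, 203 to 333 higher and 58 to 367 lower. The replicate block gave 445, 325 and 120, and same-numbered libraries deviated together with r of -0.08, 0.00 and -0.05, so the numbers were not taken to pair them. The causes of these shifts were not tested. Some of the fits also hold fewer libraries or more genes.

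In each of the 20 alternatives 0 of the called genes was called in the opposite direction. Of 119 named called genes 77 kept their call with each library left out, 64 were tested and called in each of the 20 alternatives, and 5 more were called in those that tested them. Rescaling to one total, with or without mt- genes in it, ended 24 of 32 lower and 18 of 87 higher calls among them in at least 1 of these versions. The log2 fold change of mt-Rnr1 was -0.56 as reported, 0.67 without vehicle replicate 2 and 0.73 when median-of-ratios scaling was added, and it ranged from -1.23 to 0.67 over single omissions. Changes of low genes are understated by the pseudocount, and depth is known only roughly.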
